A study of Mus musculus with 3 samples.

Results

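The 10 genes described here belong to the Bcl2 family: the anti-apoptotic genes Bcl2, Bcl2l1 and Mcl1, the effector genes Bax and Bak1, and the BH3-only genes Bcl2l11, Bbc3, Pmaip1, Bid and Bad. They were taken by name out of 21883 protein-coding genes placed on mm10. For each gene, every ATAC-seq peak that overlapped the gene body or the 20 kb on either side was taken from each of 3 deposited peak lists. ATAC-seq marks accessible chromatin by letting a transposase insert adapters into open DNA, and a peak is a stretch where such insertions pile up. The cells were hematopoietic stem cells (HSCs) sorted from adult mice given poly(I:C), which in other genotypes of this system induces Mx1-Cre. All 3 groups had the genotype Mx1-Cre-/-;mTORflox/flox, so the floxed mTOR alleles were not recombined and served as wild type. The cultured cells received DMSO, 200 nM AZD2014 (an ATP-competitive inhibitor of the mTOR kinase) or 1 µM rapamycin (an allosteric inhibitor that acts through FKBP proteins), with 1 library per condition from 50000 cells. The labels do not state the length of treatment or whether animals were pooled. With 1 library per condition, no difference below has a replicate check and none is tested.

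Bcl2 family proteins decide whether the outer mitochondrial membrane stays intact. BCL2, BCL-XL (from Bcl2l1) and MCL1 hold the pore-forming effectors BAX and BAK in check, and the BH3-only proteins relay stress signals by binding the anti-apoptotic proteins, the effectors or both. Once the effectors oligomerise, cytochrome c leaves the mitochondria and caspases are activated. MCL1 is a short-lived protein on which HSC survival depends, and its synthesis is among the processes that mTOR signalling is known to sustain. Bulk accessibility does not report transcript or protein levels, and it does not separate fewer cells with an open site from less opening per cell.

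The promoters of 5 of these genes are shown because the start of Bak1 differed from those of the other genes in its peaks, and because Bcl2, Mcl1 and Bbc3 carried the distal peaks seen under both drugs. Each line holds the 250 bases upstream of the first start listed by RefSeq (build GRCm38.p6), read 5′ to 3′ on the gene's strand. Bax is shown as the other effector gene. Capitals mark letters that matched, on either strand, a GC box (GGGCGG), an ETS core (CCGGAA), an E-box (CACGTG), a CRE core (TGACG) or a RUNX site (TGTGGT). Matches to a CCAAT box (CCAAT) and a FOXO site (TGTTTAC) were also searched and were not present in these 5.
Bcl2 (chr1:106714291-106714540, - strand): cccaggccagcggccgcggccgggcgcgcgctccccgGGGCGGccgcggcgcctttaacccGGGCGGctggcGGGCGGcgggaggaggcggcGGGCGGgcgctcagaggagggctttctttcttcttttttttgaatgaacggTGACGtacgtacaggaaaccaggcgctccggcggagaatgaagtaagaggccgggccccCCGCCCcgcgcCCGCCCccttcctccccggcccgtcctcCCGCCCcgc
Mcl1 (chr3:95658471-95658720, + strand): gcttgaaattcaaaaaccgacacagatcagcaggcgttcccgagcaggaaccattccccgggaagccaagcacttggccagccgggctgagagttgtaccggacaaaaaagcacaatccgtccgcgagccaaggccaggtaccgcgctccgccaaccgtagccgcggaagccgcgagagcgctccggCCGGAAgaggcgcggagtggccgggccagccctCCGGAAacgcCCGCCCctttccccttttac
Bax (chr7:45466899-45467148, - strand): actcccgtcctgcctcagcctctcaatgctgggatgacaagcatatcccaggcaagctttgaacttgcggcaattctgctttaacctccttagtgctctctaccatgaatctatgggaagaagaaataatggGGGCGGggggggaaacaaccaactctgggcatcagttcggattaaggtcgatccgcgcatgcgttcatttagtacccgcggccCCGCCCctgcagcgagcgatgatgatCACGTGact
Bbc3 (chr7:16309333-16309582, + strand): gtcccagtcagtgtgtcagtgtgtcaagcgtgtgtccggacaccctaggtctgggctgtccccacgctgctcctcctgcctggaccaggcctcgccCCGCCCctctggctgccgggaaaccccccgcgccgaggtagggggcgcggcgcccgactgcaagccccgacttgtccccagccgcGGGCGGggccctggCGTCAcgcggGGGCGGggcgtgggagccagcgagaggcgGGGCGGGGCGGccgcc
Bak1 (chr17:27028628-27028877, - strand): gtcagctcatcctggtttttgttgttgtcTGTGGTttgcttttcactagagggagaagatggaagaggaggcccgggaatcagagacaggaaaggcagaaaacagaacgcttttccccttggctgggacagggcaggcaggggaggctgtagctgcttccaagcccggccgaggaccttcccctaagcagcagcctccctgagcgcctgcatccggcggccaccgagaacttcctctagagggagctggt
The Bcl2 promoter held 7 GC-box matches and that of Bbc3 5, and adjoining matches can share letters. The Bax promoter held 2 GC boxes and 1 E-box, and that of Mcl1 2 ETS cores and 1 GC box. No GC box stood in these 250 bases of Bak1, whose only match was 1 RUNX site. Nor did Bcl2l1, not shown, hold a GC box or any other of these motifs upstream of its 3 starts. Its first start had a peak in all 3 lists. Of 21262 such windows of protein-coding genes, 42.6% held a GC box, 15.0% an ETS core, 6.63% an E-box, 20.2% a CRE core, 12.4% a RUNX site, 35.4% a CCAAT box and 2.62% a FOXO site. Such matches describe letters and do not show that a factor bound.

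The deposited lists numbered 17189 (DMSO), 21321 (AZD2014) and 18233 (rapamycin) peaks, and the lowest scores were about 50. Scores are values that the authors gave each peak, and they serve here only to place a peak among others of its own list, where rank 1 is the highest score. Median scores were 124, 134 and 128 in the order DMSO, AZD2014 and rapamycin. Scores of different lists printed side by side below therefore do not measure a change at a gene. Read totals are unknown. Absence of a peak says no more than that nothing above the authors' threshold was listed. Of 12 HSC and progenitor genes used to check the cell label, 8, 9 and 7 had a peak within 1 kb of a start under DMSO, AZD2014 and rapamycin. Slamf1 and Procr were among those with none in any list. Of 24 genes of B, T, erythroid, neutrophil, monocyte, mast and non-blood cells, 5, 5 and 7 had one. Of 4 erythroid markers, 3 had one in each list, as did Col1a1, 1 of 4 non-blood markers. Over all protein-coding genes the shares were 47.2%, 50.7% and 48.2%. The check therefore did not set HSCs apart from erythroid cells.

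Peaks at the starts of the family were nearly the same in the 3 lists. A start-site peak, meaning a peak within 1 kb of a RefSeq start, was present at 9 of 10 genes under DMSO, 9 under AZD2014 and 10 under rapamycin, Bak1 being the gene that differed. Over all protein-coding genes the shares were 47.2%, 50.7% and 48.2%. RefSeq starts were at hand for 9 of the 10 genes. For Pmaip1 either end of the gene was used, and its peak lay at the lower-coordinate end.

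The windows of the 10 genes contained 28 DMSO peaks, 30 AZD2014 peaks and 31 rapamycin peaks, a median of 3 per gene in each list against 1 for all protein-coding genes. Merging peaks that overlapped gave 33 regions, of which 24 held a peak in all 3 lists. Of the 33, 10 lay over a start of a member and 4 over a start, or an end where no start is listed, of a neighbouring gene (Tpx2, Ftl1, Esrra and Plcb3). All 14 were in every list, as were 10 of the 19 regions over no start (52.6%). In windows of all protein-coding genes, 85.9% of regions over a start and 35% of the others held a peak in every list. The 9 regions that differed between lists were all among the 19. They comprised 4 regions under both drugs and not DMSO (at Bcl2, Mcl1 and Bbc3), 2 under DMSO and AZD2014 and not rapamycin (both at Bid) and 3 under rapamycin alone (at Bak1 and Bid). As shares of the 33 these were 12.1%, 6.06% and 9.09%, where the windows of all protein-coding genes gave 8.03%, 5.37% and 6.32%. Regions in all 3 lists made up 72.7% against 59% there. Each of the smaller shares rests on 4 regions or fewer. No member region was found under DMSO alone, under AZD2014 alone, or under DMSO and rapamycin without AZD2014, patterns that made up 5.19%, 14.4% and 1.65% of the regions in all windows.

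**Figure D1:**
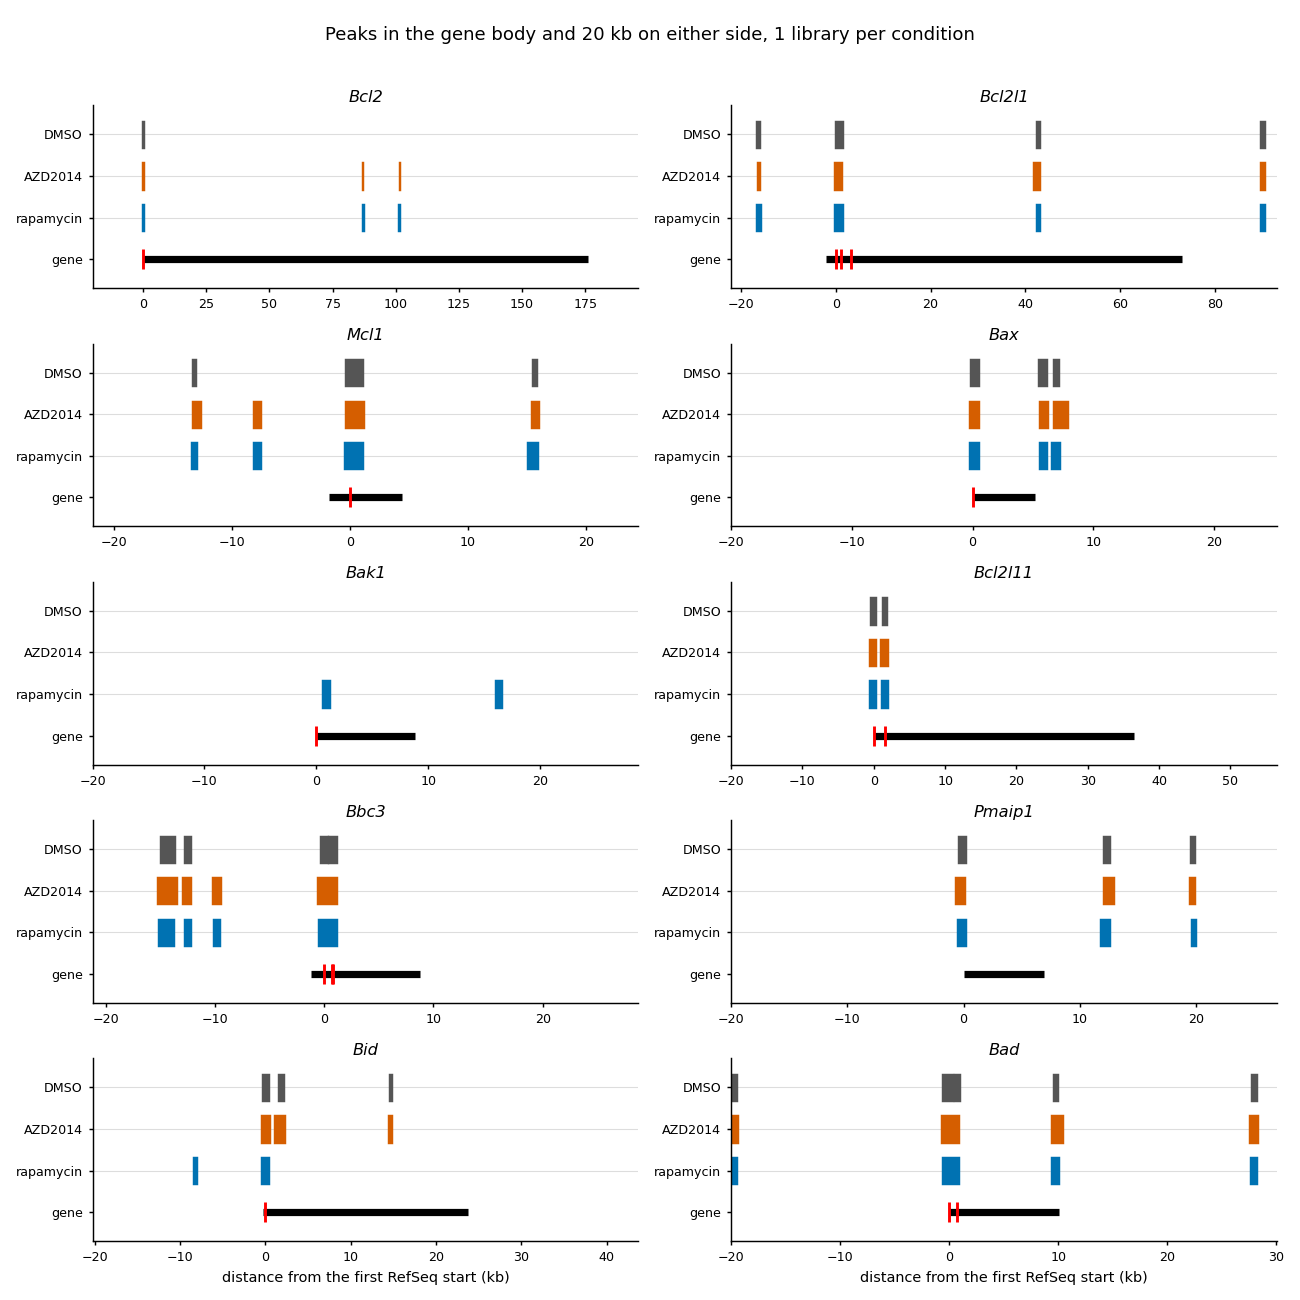
Peaks of the 3 lists in the window of each gene, by distance from the first RefSeq start in kb (for Pmaip1, from its lower-coordinate end), drawn so that transcription runs to the right where the strand is known. Bars span each peak with a thin outline that keeps narrow ones visible, the black line is the gene body and red ticks are RefSeq starts. The 4 regions seen under both drugs and not DMSO lie inside Bcl2 and upstream of Mcl1 and Bbc3, and Bak1 has 2 peaks, both under rapamycin.

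**Figure D2:**
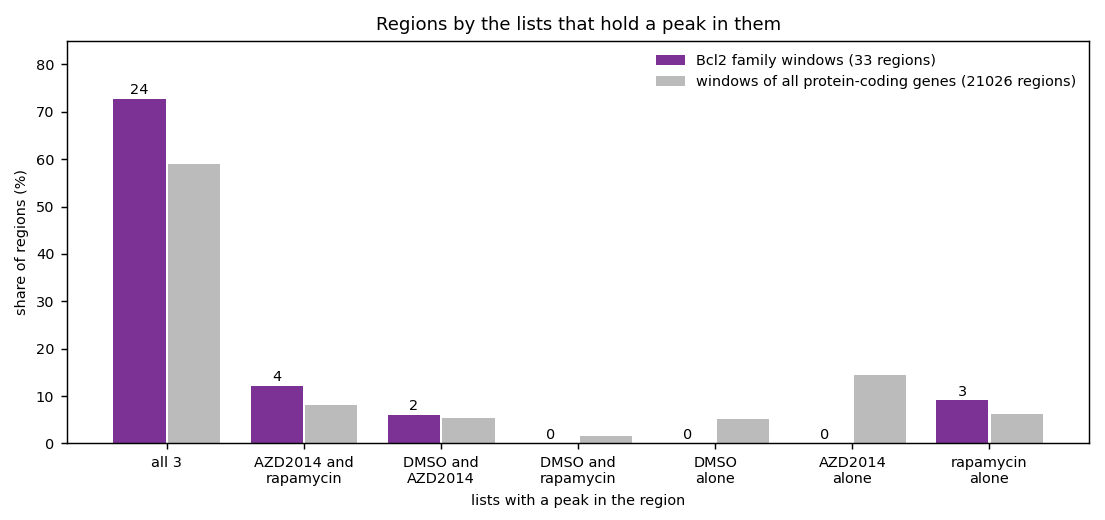
Share of merged regions (%) by the lists that hold a peak in them, for the 33 regions in the Bcl2 family windows (purple, with their number above each bar) and the 21026 regions in windows of all protein-coding genes (grey). Regions in all 3 lists make up 24 of the 33.

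Among the anti-apoptotic genes, Bcl2 and Mcl1 had additional distal peaks under both drugs, and Bcl2l1 had the same 4 regions in every list. Bcl2 (chromosome 1, 106538176 to 106714290) encodes the founding survival protein of the family. Its start-site peak scored 175 under DMSO, 309.6 under AZD2014 and 193 under rapamycin. It covered all 300 bases from 250 before to 50 after the start in each list. That was the only peak of the 176 kb gene and its flanks under DMSO. Both drug lists held 2 more peaks deep in the gene body. The one 86.9 kb past the start ran from 106627090 to 106627788 under AZD2014 (699 bp, score 148, rank 9971) and from 106626992 to 106627649 under rapamycin (658 bp, score 68.2, rank 14265). It stood in the upper 50% of the AZD2014 list. AZD2014 peaks of all 2155 regions seen under both drugs and not DMSO had a median score of 81.1 and an upper quartile of 104. The other lay 101 kb past the start, in a region overlapping Gm37053, a gene not annotated as protein-coding. It scored 53.5 under AZD2014 (106612663 to 106612941, 279 bp, rank 20184) and 64.1 under rapamycin (106612563 to 106613181, 619 bp, rank 14963). Its AZD2014 peak was near the bottom of the list and was lost when the 3 lists were shortened to equal length. The nearest DMSO peaks to these regions were 85987 and 94435 bp away. The gene table does not separate exons from introns.

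Bcl2l1 (chromosome 2, 152758732 to 152833803), whose main product is BCL-XL, had the highest-scoring start-site peak of the 10 genes in each list. It scored 431 under DMSO (rank 904), 558 under AZD2014 (rank 1248) and 388 under rapamycin (rank 2122), with widths of 1623, 1746 and 1726 bp. This peak spanned the first and second of 3 RefSeq starts. The 300 bases at the third start, 48.4% GC and without a CpG in the 250 bases upstream, were not covered in any list. The other regions of the window lay in the gene body 42.6 kb past the first start (152788703 to 152790136, scores 174, 278 and 146 in the order DMSO, AZD2014 and rapamycin), 90.0 kb past it (152741260 to 152742200, scores 195, 257 and 205) and 16.3 kb upstream (152847519 to 152848597). The last scored 290.2, 328 and 286 and lay at an end of Tpx2, a spindle assembly gene.

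Mcl1 (chromosome 3, 95656944 to 95663179) had a broad start-site peak in every list. Widths were 1522 bp under DMSO, 1576 bp under AZD2014 and 1597 bp under rapamycin, and scores 187, 365 and 289. Few peaks were as wide, since these widths were reached by 1.64%, 3.57% and 2.85% of the respective lists. A peak 7.87 kb upstream was present under AZD2014 (95650508 to 95651232, 725 bp, score 82.8, rank 14872) and rapamycin (95650495 to 95651175, 681 bp, score 83.5, rank 12380) and absent under DMSO, whose nearest peak was 4830 bp away. Further regions 13.2 kb upstream (95645316 to 95646082) and 15.6 kb downstream (95673750 to 95674715) were in all 3 lists, with scores of 66.5 to 106. Under AZD2014 the peak 7.87 kb upstream scored between these neighbours (106 and 70.3), and under rapamycin it scored below both (104 and 99.5).

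The effector genes Bax and Bak1, whose products permeabilise the outer mitochondrial membrane, differed from each other. Bax (chromosome 7, 45461695 to 45466903) had a peak over its start in each list, scoring 159 under DMSO, 260 under AZD2014 and 207 under rapamycin. Its other 2 regions (45458962 to 45460394 and 45460676 to 45461463) lay past the 3′ end of Bax and within 1 kb of a start of Ftl1, the ferritin light chain gene. The nearer to Bax scored 113, 105 and 129.5 in the order DMSO, AZD2014 and rapamycin, and the farther 209, 306 and 203. All 3 regions were present in every list. Bak1 (chromosome 17, 27019812 to 27028627) had no peak in its window under DMSO or AZD2014. A window without peaks was found for 33.6% of protein-coding genes under DMSO and 29.9% under AZD2014. Under rapamycin there were 2 peaks, one inside the gene (27027379 to 27028103, 725 bp, score 69.5, rank 14069) and one 16.3 kb past the start, beyond the 3′ end (27011979 to 27012626, 648 bp, score 74.8, rank 13411). These scores lay above the upper quartile of 66.5 among peaks of the 1853 regions seen under rapamycin alone, and below the start-site peaks of the other members under rapamycin, of which Pmaip1 had the lowest at 122.

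The peak inside Bak1 did not touch its promoter. It began 524 bp past the start, covered none of the 300 bases around it, and lay in a stretch that the gene Ggnbp1 also spans. With 500 bp in place of 1 kb, the number of genes with a start-site peak was 9 in each list. A start-site peak under rapamycin and in neither other list was found for 0.841% of protein-coding genes. In the 250 bases upstream of the first start, Bak1 had 8 CpG dinucleotides, the fewest of the 9 genes with a listed start, the rest having 12 (Bcl2l1) to 36 (Bcl2). The median was 18 for 8901 promoters overlapped by a peak in all 3 lists and 3 for 10773 overlapped in none. GC content of the same 250 bases was 58.4% at Bak1 and 47.6% at Bcl2l1, whose start-site peak scored highest of all members. Whether promoter sequence had a part in these peaks was not tested. Start-site peaks under rapamycin and not DMSO were also found at Mpo and Cpa3, markers of neutrophil precursors and mast cells. They were 1 of 4 neutrophil and monocyte markers and 1 of 4 mast cell markers, with 0 of 4 in each under DMSO and AZD2014. Window peaks of these lists summed to 4, 5 and 4 and to 0, 2 and 2 under DMSO, AZD2014 and rapamycin. Ly6g, Mcpt8 and Fcer1a had no window peak in any list. Whether these cells had a part in the Bak1 peaks was not tested.

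**Figure D3:**
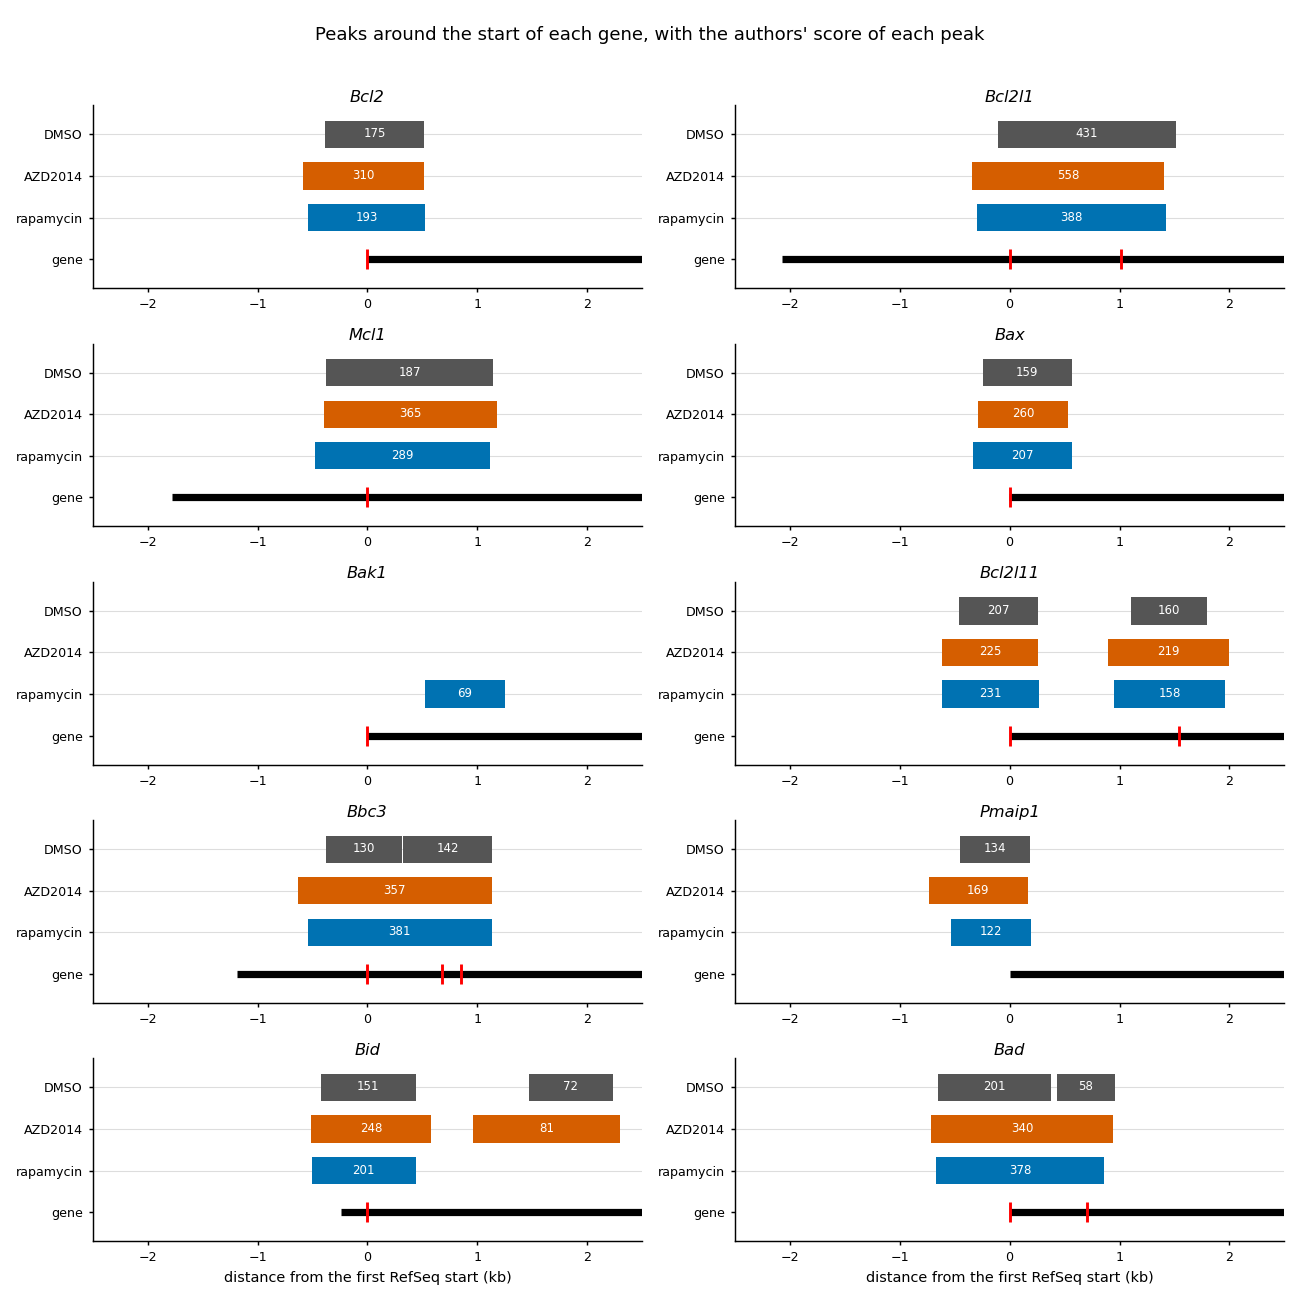
Peaks within 2.5 kb of the first RefSeq start (for Pmaip1, of its lower-coordinate end), to scale, with the authors' score of each peak written on its bar, the gene body as a black line and RefSeq starts as red ticks. Bbc3 and Bad have 2 DMSO peaks where each drug list has 1, and the Bak1 peak under rapamycin begins 524 bp past the start.

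The BH3-only genes had a start-site peak in every list, and the windows of Bbc3 and Bid differed between lists. Bcl2l11 (chromosome 2, 128126038 to 128162547), which encodes BIM, had 1 peak at each of its 2 RefSeq starts and no other window peak. At the first start (128125426 to 128126301) scores were 207 under DMSO, 225 under AZD2014 and 231 under rapamycin. At the second (128126929 to 128128031) they were 160.0, 219 and 158. Both starts have CpG-rich upstream sequence, with 24 and 30 CpG in 250 bases. The first holds a match to the FOXO site, which 2.62% of such windows contain. The window of the second Bbc3 start also holds a FOXO match.

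Bbc3 (chromosome 7, 16308398 to 16318334) encodes PUMA, a p53-induced activator of apoptosis. At its 3 starts the DMSO list had 2 peaks only 5 bp apart (16309205 to 16309900, score 130.4, and 16309906 to 16310719, score 142). AZD2014 had 1 peak of 1767 bp across the same stretch (16308948 to 16310714, score 357), as had rapamycin, of 1678 bp (16309040 to 16310717, score 381). Because the DMSO list divides this stretch, its scores are not like for like with those of the drugs. A peak 9.84 kb upstream was present under AZD2014 (16299319 to 16300141, 823 bp, score 68.3, rank 16995) and rapamycin (16299436 to 16300076, 641 bp, score 53.7, rank 17174) and not DMSO. Both ranks stood just inside the 17189 peaks kept at equal list length. It lay beside upstream regions at 14.4 kb (16294325 to 16296120, scores 268, 235 and 265) and 12.5 kb (16296576 to 16297411, scores 90.9, 78.8 and 139) that were in all lists, and the nearest DMSO peak was 1936 bp away.

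Pmaip1 (chromosome 18, 66458604 to 66465558) encodes NOXA, which binds MCL1. All 3 of its regions were in every list. The peak at the lower-coordinate end (66457866 to 66458794) scored 134 under DMSO, 169 under AZD2014 and 122 under rapamycin. Regions beyond the other end were at 66470375 to 66471531 (scores 79.0, 104 and 131) and 66478028 to 66478623 (scores 90.0 under DMSO, 124 under AZD2014 and 55 under rapamycin). No other protein-coding gene reached into this window.

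Bid (chromosome 6, 120893119 to 120917062), whose product is cleaved by caspase-8 and carries death-receptor signals to the mitochondria, was the only member with regions missing under rapamycin. Its start-site peak (120916245 to 120917333) was in all 3 lists, with scores of 151, 248 and 201. A region 1.74 kb past the start held a DMSO peak (120914594 to 120915350, score 72.5) and an AZD2014 peak (120914525 to 120915859, score 80.7). A second, 14.6 kb past the start, held a DMSO peak (120902044 to 120902335, score 96.9) and an AZD2014 peak (120901989 to 120902453, score 69.8). Neither held a rapamycin peak. The rapamycin peak nearest to the 1.74 kb region was the one over the start, 524 bp away. DMSO peaks of all 1407 regions of this pattern had a median score of 66.4 and an upper quartile of 80.3. Rapamycin in turn had a peak 8.25 kb upstream (120924852 to 120925302, 451 bp, score 65.0) that neither other list held.

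Bad (chromosome 19, 6941861 to 6951905), which encodes a BH3-only protein that is inactivated by survival-kinase phosphorylation, had 4 regions, each in all lists. At its starts the DMSO list again had 2 peaks, 53 bp apart (scores 201 and 58.5), where AZD2014 had 1 peak of 1658 bp (score 340.0) and rapamycin 1 of 1535 bp (score 378). A start of Gpr137 lies in the same region or within 1 kb of it, so this peak cannot be given to Bad alone. Regions with 2 or more DMSO peaks and 1 peak under each drug made up 1.03% of the 13670 regions in all 3 lists, and the reverse 0.0439%. The region at the 3′ end of Bad (6951158 to 6952292) scored 154, 214 and 195.0. The 2 outer regions lay at starts of Esrra (6921094 to 6922535) and Plcb3 (6969372 to 6970175), the latter with scores of 78.8, 152 and 151. The one at Esrra, an orphan nuclear receptor gene, had the highest score in the windows of all 10 genes, at 526, 720 and 615.

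In the order of start-site peaks by score, Bcl2l1 stood at position 1 and Pmaip1 at position 9 in all 3 lists. Position 9 was the last under DMSO and AZD2014, and under rapamycin Bak1 followed at position 10. Between them, Bcl2l11 stood at position 2 under DMSO, 8 under AZD2014 and 5 under rapamycin. Bbc3 stood at positions 8, 3 and 2, an order touched by its division under DMSO. Except for Pmaip1 under rapamycin (52.0%) and Bak1 (77.2%), every highest start-site peak stood in the upper 50% of its list by rank. With no replicates, neighbours in this order cannot be separated. At every member with a start-site peak under DMSO, the highest such peak scored higher under AZD2014. The same held at each of the 47 other apoptosis genes listed below with a start-site peak in both lists. Higher AZD2014 scores were thus not particular to any member.

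**Figure D4:**
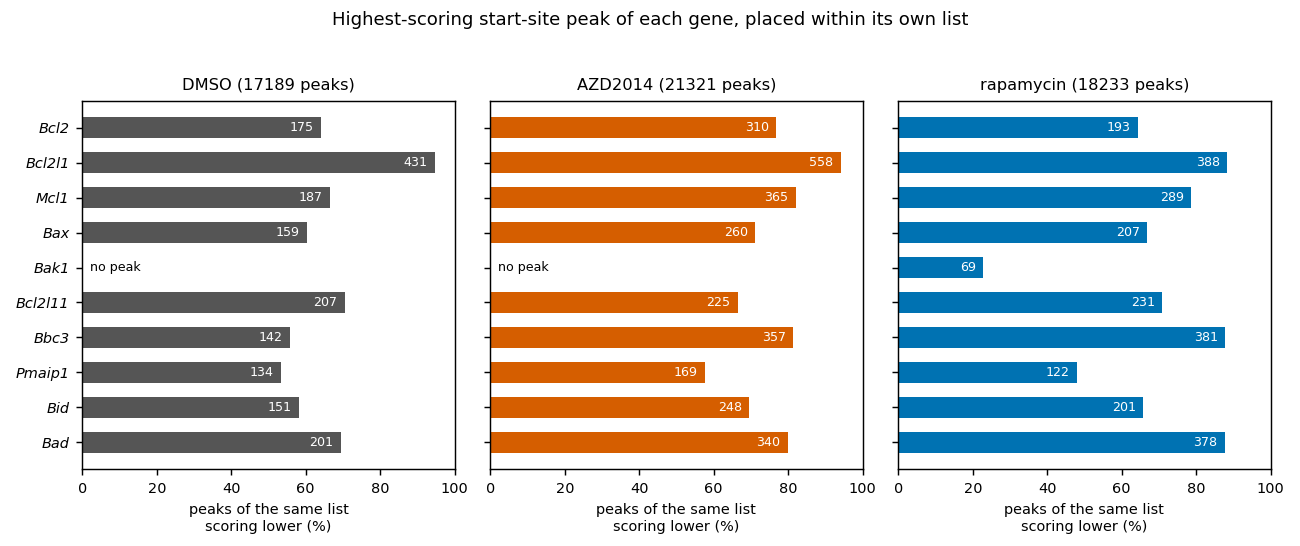
Highest-scoring start-site peak of each gene, placed by the share of peaks of the same list that scored lower (%), with its score on the bar and 1 panel per library. Bcl2l1 stands highest in every list, and Bak1 has a bar under rapamycin only. Bars of different panels come from lists of different length and are not on one scale.

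Against DMSO, AZD2014 had more window peaks at 2 members, Bcl2 and Mcl1, and fewer at 1, Bad. Of all protein-coding genes 23.6% had more and 6.42% had fewer, or 32.6% and 8.84% of genes with a window peak in any list. The share of members with more peaks was thus no higher than the background. The decrease at Bad came from the joined start-site peaks, and counting merged regions, a choice made after seeing the data, gave 3 members with more (Bcl2, Mcl1 and Bbc3) and 0 with fewer, beside 23.6% and 5.5% of all protein-coding genes. Among the 50% of peaks with the highest scores in each list, the members with more were Bcl2 and Bad. Bad thus turned from fewer to more (3 peaks under DMSO and 4 under AZD2014). Its added peak lay at a start of Plcb3, in a region held by all 3 full lists. Mcl1 had 1 peak in each, and the member with fewer was Bbc3. At Bbc3 DMSO and AZD2014 kept the same regions, and the DMSO count of 3 includes both parts of its divided start-site peak. Start-site status differed at no member, where 4.5% of protein-coding genes had a start-site peak under AZD2014 and not DMSO and 0.978% the reverse.

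Rapamycin had more window peaks than DMSO at 3 members, Bcl2, Mcl1 and Bak1, and fewer at 2, Bid and Bad. The background was 14.8% with more and 11.3% with fewer, or 20.4% and 15.6% of genes with a window peak in any list. Counted as merged regions, 4 members had more (Bbc3 added) and 1, Bid, had fewer, beside 14.6% and 10.5% of protein-coding genes. Among the 50% of peaks with the highest scores, none of the gains at Bcl2, Mcl1 and Bak1 was present. The members with more were then Bax (2 under DMSO and 3 under rapamycin) and Bad (3 and 4), which again turned direction. No member had fewer. The peak added at Bax lay within 1 kb of a start of Ftl1, and that at Bad lay at a start of Plcb3. Both regions held a peak in all 3 full lists, so only their place above or below the 50% cut differed. Bak1 was the 1 member whose start-site status differed, against 3.03% of protein-coding genes in this direction and 2.06% in the other. Both comparisons use the same DMSO library, so the peaks that Bcl2, Mcl1 and Bbc3 had under each drug are not separate observations. The drugs were given at different doses, and their values are set side by side only.

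By role, the anti-apoptotic genes held 8 window peaks under DMSO and 11 under each drug. The effectors held 3, 3 and 5, and the BH3-only genes 17, 16 and 15. The BH3-only count under DMSO includes divided start-site peaks, with 4 peaks in 3 regions at Bbc3 and 5 in 4 at Bad. The BH3-only counts are therefore not like for like between DMSO and the drugs. Counted as regions, Bbc3 had 3, 4 and 4 and Bid 3, 3 and 2. Bcl2l11, Pmaip1 and Bad had the same number of regions in each list. The additional anti-apoptotic peaks lay at Bcl2 (1, 3 and 3) and Mcl1 (3, 4 and 4), with Bcl2l1 unchanged. No share over all protein-coding genes was computed for these sums by role, and no difference between roles was tested. Per gene, the members averaged 2.8, 3 and 3.1 window peaks in the order DMSO, AZD2014 and rapamycin, against 1.32, 1.56 and 1.37 for all protein-coding genes. Of the 10 genes, 5 (Bcl2l1, Bax, Bcl2l11, Pmaip1 and Bad) had every region in all lists, near the 45.5% of the 15887 protein-coding genes with a window region in any list.

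Other genes of the apoptosis pathway were mostly marked at their starts as well. Of 47 listed genes, 38 (80.9%) had a DMSO start-site peak, 39 (83.0%) an AZD2014 one and 37 (78.7%) a rapamycin one. All protein-coding genes gave 47.2%, 50.7% and 48.2%. The start-site status of the 47 genes differed between any of the lists at 6 of them. No share over all protein-coding genes was computed for that measure. The shares that follow count a single direction between DMSO and a drug, so they are not like for like with it. Over all protein-coding genes, 4.5% had a start-site peak under AZD2014 and not DMSO and 0.978% the reverse. For rapamycin the shares were 3.03% and 2.06%. AZD2014 had more window peaks than DMSO at 14 of the 47 genes (29.8%) and fewer at 6 (12.8%). All protein-coding genes gave 23.6% and 6.42%. Rapamycin had more at 8 (17.0%) and fewer at 9 (19.1%), against 14.8% and 11.3%. Of genes with a window peak in any list, the shares were 32.6% and 8.84% under AZD2014 and 20.4% and 15.6% under rapamycin. Among 16 caspase and apoptosome genes the numbers with a start-site peak were 15, 16 and 16. Casp8, whose product cleaves BID, lacked one under DMSO and scored 77.0 under AZD2014 and 79.3 under rapamycin. The p53 axis had 8, 7 and 7 of 8 genes, since Cdkn1a, the p21 cell cycle inhibitor gene, had one under DMSO alone, with a score of 57.8.

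The 15 other Bcl2 family genes were marked less completely, with 8, 9 and 7 in the order DMSO, AZD2014 and rapamycin. These counts were near the shares of all protein-coding genes, which were 47.2%, 50.7% and 48.2%. Bcl2l2, an anti-apoptotic gene, had a start-site peak under DMSO (score 85.3) and AZD2014 (score 101) and not rapamycin. Bcl2l14 had one under DMSO alone (score 58.2). Bcl2a1d had one under AZD2014 (score 113) and rapamycin (score 59.4), and Bcl2a1b under AZD2014 alone (score 58.95). Bcl2a1 genes are near-identical copies, so reads may be divided among them and these calls are uncertain. Bcl2l10, Bcl2a1a, Bok, Hrk and Bcl2l15 had none in any list. All 3 Vdac genes, which encode mitochondrial channel proteins, had one in every list. So did 4 of 5 regulators of BH3-only genes or of their products (Foxo1, Foxo3, Ddit3 and Dynll1).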

How the data were processed

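ATAC-seq peaks of mouse HSCs under DMSO, AZD2014 and rapamycin were analysed, with 1 library per condition, grouped by sample title. The authors deposited 1 peak list per library with a score per peak, so peaks were not called on pooled samples. CASAVA and build mm10 are named in the submitters' processing notes, and the peak names carry the word MACS. The caller's settings, the aligner, duplicate handling and any read shift were not stated there. They affect how many weak peaks are listed and whether adjoining peaks are divided. Depth is unknown.

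The deposited starts count from 0 and were written from 1. Peaks overlapping by at least 1 bp were merged into regions. Gene positions, starts and promoter sequences came from RefSeq tables on GRCm38.p6, the assembly of mm10. Starts were matched for 17491 of 21883 protein-coding genes, and either gene end was used for the rest. The table's gene bodies were used, with exons not separated. The members and gene lists were chosen with earlier results of these data known. The text names all members and the other apoptosis genes whose start-site status differs between lists. Any other named gene was picked after seeing its values. Merging was tested on altered copies of the DMSO list, with peaks removed, shifted and added. Divided peaks were not part of that test. Versions were Python 3.11.15, pandas 2.3.3, numpy 2.4.6 and matplotlib 3.10.9.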

Additional observations from a re-analysis of the deposited data

How the results depend on the processing

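No paired analysis was possible because each condition has 1 library. With lists of equal length (17189 peaks), the counts of peaks, start-site peaks and members that differed moved by at most 1, and there were 3 regions under both drugs and not DMSO and 4 under rapamycin alone. Among the 50% of peaks with the highest scores in each list, window peaks numbered 18, 19 and 20 under DMSO, AZD2014 and rapamycin, regions under both drugs and not DMSO 1, those under DMSO and AZD2014 and not rapamycin 1, those under AZD2014 alone 1, and members with fewer window peaks under rapamycin 0. Which members differed changed there too, and Bad turned from fewer to more under both drugs, where the added peak lay at a start of Plcb3. With the gene body alone, window peaks numbered 16, 16 and 15, regions in all 3 lists 12, those under both drugs and not DMSO 2, and those under rapamycin alone 1, while AZD2014 had more peaks than DMSO at 1 member and fewer at 2. With 50 kb on either side, window peaks numbered 51, 54 and 53, regions in all 3 lists 43, those under DMSO and AZD2014 and not rapamycin 4, those under DMSO alone 2 and those under AZD2014 alone 1, while AZD2014 had more peaks than DMSO at 5 members and fewer at 2. A reciprocal overlap of 50% gave 3 regions under DMSO alone, 2 under AZD2014 alone and 1 under DMSO and rapamycin and not AZD2014. Joining peaks up to 500 bp apart left 1 region under DMSO and AZD2014 and not rapamycin. Merged regions in place of peaks, an alternative chosen after seeing the data, left 0 members with fewer under AZD2014 and 1 under rapamycin. Wider or narrower windows and shorter lists change these counts by construction, and no other cause was tested. The number of members with a start-site peak stayed within 1.5 times under every alternative run for it.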
